A study of Mus musculus with 14 samples.

Results

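The bone morphogenetic protein (BMP) pathway was followed through 10 mouse genes chosen by name, 4 ligands (Bmp2, Bmp4, Bmp5 and Bmp7) and 6 genes that respond to BMP signals (Id1, Id2, Id3, Msx1, Msx2 and Smad6), out of 36047 gene identifiers in the deposited tables. All 10 were present and all 10 passed the filter on low counts in both tables. RNA was sequenced from embryoid bodies, balls of differentiating cells grown from embryonic stem cells in suspension. A pair of mouse lines was used, iHA-Foxk1 as control (marked ND at days 3 and 5, letters with no key in the labels) and a Foxk1 knockout (KO), both in medium that favours mesoderm. Control and Foxk1 KO embryoid bodies were collected at day 3, day 5 and day 10, and Foxk1 KO embryoid bodies with IWR1, a tankyrase inhibitor that keeps Axin from being degraded and so dampens canonical Wnt signalling, at day 10. The 7 groups held 2 libraries each, 14 in all. The labels give neither dose nor timing of IWR1, and the groups used here include no control line with IWR1. With only 1 line per genotype, the effect of losing Foxk1 and any other difference between these lines cannot be told apart. Stem cells were grown on fibroblast feeder cells, which were removed by a plating step.

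BMPs are secreted proteins that bind paired serine/threonine kinase receptors. The receptors phosphorylate Smad1, Smad5 and Smad9, which enter the nucleus with Smad4 and switch on genes such as the Id family, the Msx homeobox genes and the inhibitory Smad6. In the mouse embryo BMP4 is needed for mesoderm to form, and in stem cell cultures BMP signals act with Wnt and Nodal signals to move cells into mesoderm and away from neural fates. Such response genes, Id2, Msx1 and Msx2 among them, also respond to other pathways, so that their levels do not report BMP signalling alone.

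Levels are CPM, counts scaled to a common library total by the TMM method, and differences are log2 fold changes ± SE from edgeR's quasi-likelihood test. This SE was derived as the size of the log2 fold change divided by the square root of the test's F statistic. It therefore restates the test and is no separate measure of spread. A gene is said to rise or fall where its Benjamini-Hochberg adjusted p over all genes tested was below 0.05. Intervals of log2 fold changes are normal approximations from the SE, so their 95% level is nominal and they are narrower than this test implies. Libraries of days 3 and 5 held 10574194 to 11621032 estimated counts and those of day 10 held 34466708 to 52747273. A count of 3 in a library corresponded to 0.254 to 0.298 CPM at days 3 and 5 and to 0.0621 to 0.0827 CPM at day 10. Foxk1, which checks the labels, stood at 76.4 and 86.3 CPM in the day 3 control libraries against 16.2 and 16.5 CPM in KO, and the day 5 libraries were as clearly apart. At day 10 it was at 65 and 80.1 CPM in control, 71.3 and 41.8 CPM in the libraries labelled Foxk1 KO, and 26.4 and 52.9 CPM in those labelled Foxk1 KO with IWR1. The day 10 control and KO values overlapped (-0.36 ± 0.39, adjusted p = 0.722), so directions at day 10 rest on the labels. In bulk RNA, fewer cells of a type and less RNA per cell cannot be told apart.

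Of the 10 genes, 7 have a promoter in the RefSeq table of the GRCm38.p6 build; Bmp2, Bmp7 and Id1 were not matched. The 250 bases before the RefSeq start site are shown for the 4 of these genes that rose together with IWR1 at day 10, and for Smad6, the response gene whose change did not pass the test there. Each is read 5′ to 3′ on the gene's own strand, at chr12:25096093-25096342 for Id2 (minus strand), chr4:136143572-136143821 for Id3 (plus), chr5:37824586-37824835 for Msx1 (minus), chr13:53472781-53473030 for Msx2 (minus) and chr9:64022060-64022309 for Smad6 (minus). The windows of Id2, Id3 and Msx2 lie inside the span that GENCODE gives the gene, since GENCODE places its outermost start further upstream. Capitals mark the GC-rich Smad element GGCGCC and the Smad box GTCT, searched on both strands, so that AGAC is the box on the other strand.
Id2: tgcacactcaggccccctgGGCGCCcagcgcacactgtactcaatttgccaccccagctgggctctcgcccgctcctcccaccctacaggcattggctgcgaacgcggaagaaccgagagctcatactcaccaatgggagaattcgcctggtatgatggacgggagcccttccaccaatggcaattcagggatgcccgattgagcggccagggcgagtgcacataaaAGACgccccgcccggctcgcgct
Id3: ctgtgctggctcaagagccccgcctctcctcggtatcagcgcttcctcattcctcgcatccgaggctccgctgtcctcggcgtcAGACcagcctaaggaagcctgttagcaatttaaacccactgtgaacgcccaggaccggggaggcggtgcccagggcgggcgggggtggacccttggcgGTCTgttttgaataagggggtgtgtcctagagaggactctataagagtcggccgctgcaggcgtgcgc
Msx1: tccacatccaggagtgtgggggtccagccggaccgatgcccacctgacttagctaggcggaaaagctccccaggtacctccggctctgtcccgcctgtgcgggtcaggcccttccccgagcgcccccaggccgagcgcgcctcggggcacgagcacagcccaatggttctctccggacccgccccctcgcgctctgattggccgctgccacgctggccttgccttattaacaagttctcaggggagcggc
Msx2: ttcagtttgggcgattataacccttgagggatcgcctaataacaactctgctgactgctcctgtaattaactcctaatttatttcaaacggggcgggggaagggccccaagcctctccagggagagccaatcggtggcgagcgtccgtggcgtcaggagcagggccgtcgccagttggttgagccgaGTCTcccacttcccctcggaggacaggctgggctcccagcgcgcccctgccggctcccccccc
Smad6: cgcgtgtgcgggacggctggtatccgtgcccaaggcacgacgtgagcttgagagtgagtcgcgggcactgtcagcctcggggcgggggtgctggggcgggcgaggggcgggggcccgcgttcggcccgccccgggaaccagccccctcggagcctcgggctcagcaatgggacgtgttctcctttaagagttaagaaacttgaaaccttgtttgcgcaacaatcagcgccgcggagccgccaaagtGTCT

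The GC-rich element stood once among these windows, in Id2, with its first base 231 bases before the start site. It was present in 9.59% of the 32851 promoters of the table. The Smad box was found at 1 place in Id2, 2 in Id3, 1 in Msx2, 1 in Smad6 and 0 in Msx1, and 82.9% of all promoters hold it. The TCF and LEF motif ATCAAAG, searched on both strands because IWR1 acts on the Wnt pathway, was in none of the 7 promoters and in 3.21% of all. The windows shown were rich in G and C, from 61.6% in Msx2 to 68.0% in Msx1, against a median of 52.4% over the table. Of the windows not shown, that of Bmp4 held 63.2% and that of Bmp5 42.8%. A match is a stretch of letters, and these windows leave out distant enhancers.

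The day 3 comparison asks how the KO line differs when mesoderm first forms. All 4 ligands were lower in KO, together with Msx1, Msx2 and Id1, while Id2 was higher. Thus 7 of the 10 genes fell and 1 rose, where 16.9% of all genes tested fell and 16% rose (32.9% called in all). The median of the 10 log2 fold changes was -2.21, and that of all genes tested was -0.01.

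Bmp4 (chromosome 14, 46383520 to 46390669 on mm10), the ligand that embryonic mesoderm depends on, was at 14.4 and 14.4 CPM in the day 3 control libraries and at 2.03 and 2.62 CPM in KO. Its fall was -2.62 ± 0.43 (adjusted p = 0.0072). The libraries of each line lay close together and far from the other line. Bmp2 (chromosome 2, 133552159 to 133562885), a close relative of Bmp4, fell from 9.07 and 8.89 CPM to 0.442 and 1.18 CPM (-3.43 ± 0.45, adjusted p = 0.00165). Bmp7 (chromosome 2, 172868012 to 172940321), a ligand that pairs with BMP2 or BMP4, fell from 37.0 and 37.0 CPM to 11.6 and 9.63 CPM (-1.80 ± 0.27, adjusted p = 0.00339). It was the ligand with the most RNA in the day 3 control, per length as well as in CPM. Bmp5 (chromosome 9, 75775364 to 75900310), related to Bmp7, had few reads at this stage, 3.87 and 2.20 CPM in control, and 1 count over both KO libraries. The control libraries held 69 counts, a ratio of 70.3 with a counting interval of 12.2 to 2816 at the 95% level (adjusted p = 0.000535). The interval covers counting error only. Bmp5 also overlaps the antisense gene Gm26903, which was not analysed here, over 1879 identical bases, and whether counting used strand is not settled.

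Msx1 (chromosome 5, 37820485 to 37824583), a homeobox repressor switched on by BMP in mesoderm and neural crest, was at 67.9 and 73.3 CPM in control and 3.71 and 4.65 CPM in KO. With -4.07 ± 0.13 (adjusted p = 3.16e-08) it had the smallest p of the 10. Msx2 (chromosome 13, 53466884 to 53473074), its paralog, fell from 11.8 and 12.6 CPM to 1.33 and 1.44 CPM (-3.13 ± 0.36, adjusted p = 0.000858). Both homeobox genes were therefore far lower in every KO library.

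The Id genes, which encode proteins that bind and block basic helix-loop-helix transcription factors, did not move together. Id1 (chromosome 2, 152736251 to 152737410) fell from 48.0 and 50.9 CPM to 27.0 and 24.5 CPM (-0.94 ± 0.08, adjusted p = 2.73e-05). Id2 (chromosome 12, 25093799 to 25097140) rose from 10.6 and 8.54 CPM to 18.7 and 16 CPM (0.86 ± 0.17, adjusted p = 0.00582). Id2 thus ran against Id1 in both KO libraries. Its call was lost without control replicate 2 of day 3 (0.71, adjusted p = 0.0574) or without KO replicate 1 (0.74, adjusted p = 0.0523). Id3 (chromosome 4, 136143497 to 136145755) was at 46.3 and 44.7 CPM in control and 41.7 and 48.7 CPM in KO, with values that overlapped (-0.01 ± 0.08, adjusted p = 0.938, interval -0.17 to 0.15 at the 95% level). Its sign turned under another scaling, under DESeq2 and without the low-count filter. Smad6 (chromosome 9, 63953076 to 64022059), which blocks BMP receptors and their Smads as a feedback inhibitor, had 11.2 and 12.2 CPM in control and 7.52 and 5.66 CPM in KO (-0.83 ± 0.36, adjusted p = 0.138). The groups did not overlap, and a call was made by DESeq2 (adjusted p = 0.0158), in a fit of the day 3 libraries alone (adjusted p = 8.84e-05), without KO replicate 1 of day 5 (adjusted p = 3.28e-05) and without KO replicate 2 of day 5 (adjusted p = 4.71e-05).

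**Figure D1:**
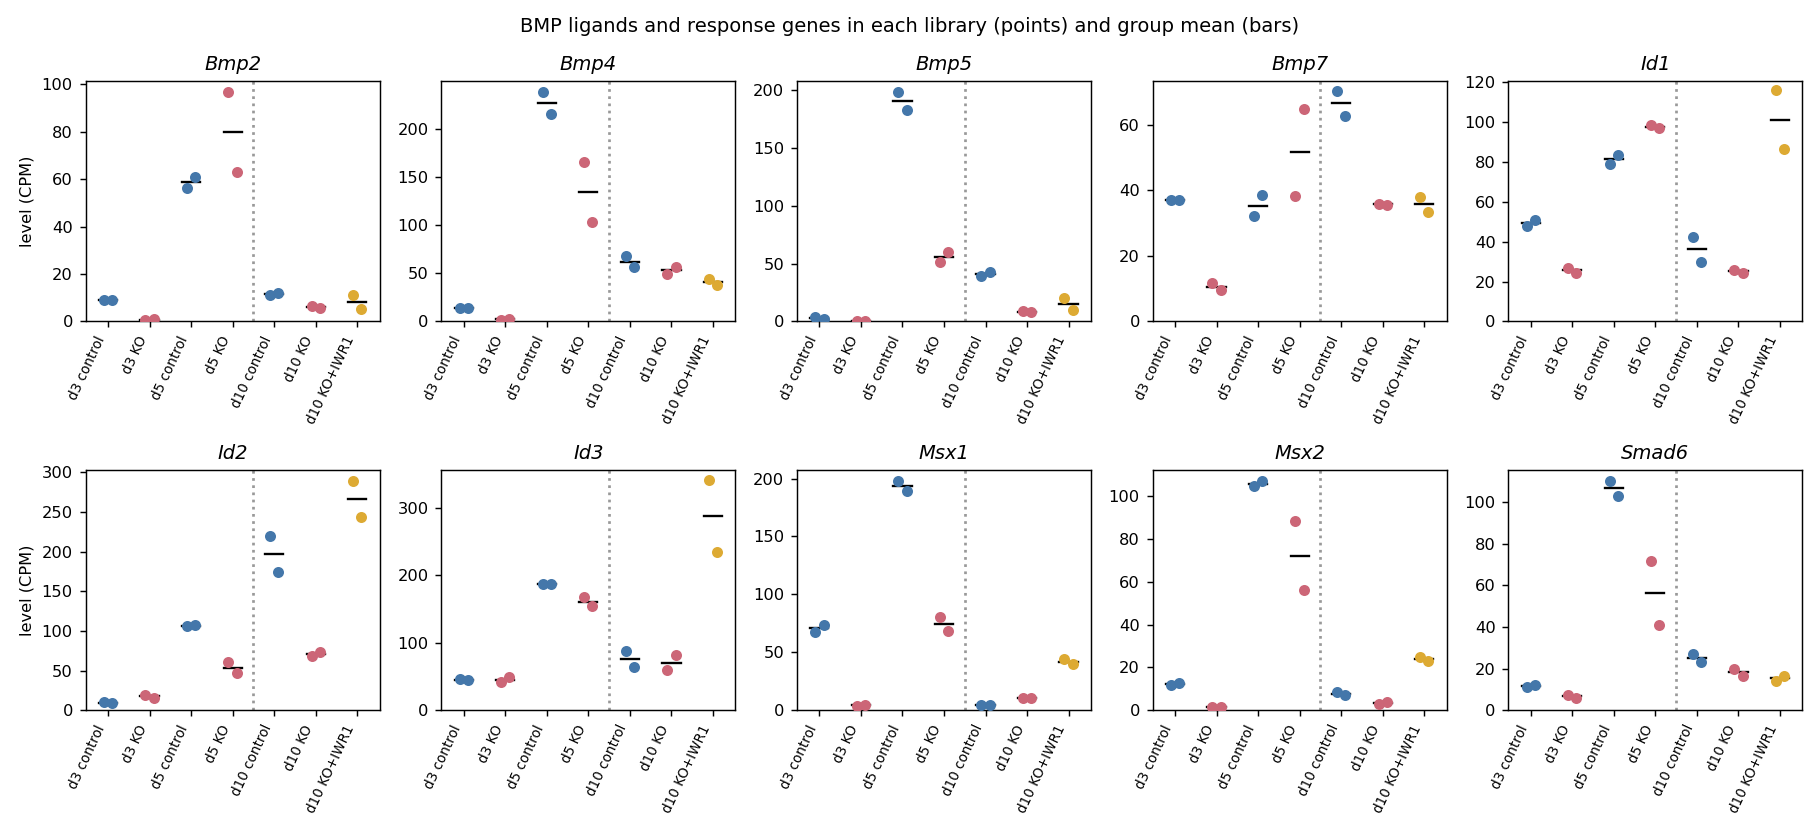
Level of each of the 10 genes in every library (vertical axis, CPM, its own linear scale from 0 in each panel) by group (horizontal axis). Points are libraries, bars are means of 2 libraries, and the dotted line sets off the day 10 table, which was deposited and scaled separately. Msx1 lies near 70 CPM in the day 3 control and near 4 CPM in KO, and with IWR1 at day 10 the 3 Id genes and both Msx genes stand above the untreated KO.

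Around the 10 genes, 52 other genes of the pathway were listed, of which 43 were tested at days 3 and 5. At day 3, 13 of the 43 fell and 5 rose, where 16.9% of all genes tested fell and 16% rose. Among 4 transducers 3 fell, and Smad1, which carries the signal to the nucleus, went from 92.8 ± 2.68 (SD, n = 2) to 28.5 ± 3.42 CPM (-1.70 ± 0.11, adjusted p = 4.99e-06). Of 7 further response genes 4 fell, led by Gata3, a transcription factor of early mesoderm and trophoblast, at 4.01 ± 0.561 against 0.774 ± 0.22 CPM (-2.35 ± 0.28, adjusted p = 0.000284). Rgmb, a BMP co-receptor, fell from 24.7 ± 0.684 to 11.1 ± 0.927 CPM (-1.15 ± 0.15, adjusted p = 0.000494). Bmp6 rose from 0.748 ± 0.187 to 2.60 ± 0.328 CPM, the opposite direction to the 4 ligands above (1.78 ± 0.40, adjusted p = 0.00861). Ski, a repressor of Smad-driven transcription, rose by 0.49 ± 0.06 (adjusted p = 0.000413) and the receptor gene Bmpr1a by 0.24 ± 0.06 (adjusted p = 0.0121). The receptors as a group were near level, with 7 of 10 not called and a median of -0.05.

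Markers of other cells moved with these differences. All 8 listed genes of the primitive streak and early mesoderm were lower in the day 3 KO, with summed levels of 2244 to 2328 CPM in control and 217 to 264 CPM in KO and 0 of the markers at 0 in any of these libraries. Of 6 neural markers 5 were higher, with sums of 24.7 to 27.6 CPM in control and 80.9 to 84.5 CPM in KO, again with 0 at 0. Their part in the BMP results was not tested.

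At day 5, 7 of the 10 genes were lower in KO and 1 higher, with a median of -0.65 against 0.01 for all genes tested. The fitted size of the difference was larger than at day 3 for Id2, Id3 and Smad6 and smaller for the other 7 genes. At this stage 21.7% of all genes fell and 21.9% rose (43.5% called in all).

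Bmp5 was at 198 and 183 CPM in the day 5 control and at 51.2 and 59.6 CPM in KO (-1.78 ± 0.13, adjusted p = 2.35e-05). Msx1 was at 198 and 189 CPM in control and at 80.5 and 68.7 CPM in KO (-1.38 ± 0.09, adjusted p = 4.1e-06). Id2, which had been higher in KO at day 3, was now lower, at 61.0 and 46.4 CPM against 106 and 107 CPM in control (-0.99 ± 0.13, adjusted p = 0.000495). These 3 genes fell in each of the alternative fits as well.

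The other day 5 calls were smaller. Bmp4 was at 238 and 216 CPM in control and 166 and 104 CPM in KO (-0.75 ± 0.21, adjusted p = 0.0351). Smad6 was at 110.3 and 103 CPM in control and 71.8 and 40.9 CPM in KO (-0.92 ± 0.25, adjusted p = 0.029). Msx2 was at 105 and 107 CPM in control and 88.3 and 56.3 CPM in KO (-0.55 ± 0.18, adjusted p = 0.0469). In all 3 the control libraries lay together and the KO libraries apart, with KO replicate 2 the lowest of the 4. Id3 was at 188 and 187 CPM in control and 168 and 155 CPM in KO (-0.22 ± 0.07, adjusted p = 0.0348). Id1 was the gene that rose, from 79.2 and 83.5 CPM to 98.4 and 96.9 CPM (0.26 ± 0.07, adjusted p = 0.014). Both were small differences between libraries that agreed closely.

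These 5 calls were lost in some of the alternative fits. Of the 8 genes called, 3 were left without control replicate 1 of day 5, and 4 without control replicate 2 of day 5, without control replicate 1 or replicate 2 of day 3, or in a fit of the day 5 libraries alone. Without the low-count filter 5 were called. DESeq2 did not call Id1 (adjusted p = 0.118) or Id3 (adjusted p = 0.148).

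Bmp2 and Bmp7 did not pass the test at day 5. Bmp2 was at 56.5 and 60.8 CPM in control and at 96.6 and 62.9 CPM in KO, with both KO libraries above both controls (0.44 ± 0.21, adjusted p = 0.135). Bmp7 was at 32.0 and 38.7 CPM in control and at 38.4 and 64.7 CPM in KO, with values that overlapped (0.55 ± 0.24, adjusted p = 0.116). The KO libraries differed for both genes, in opposite order. Without KO replicate 2 a rise of Bmp2 was called (0.71, adjusted p = 4e-07), and without KO replicate 1 a rise of Bmp7 (0.87, adjusted p = 5.13e-08).

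Among the other pathway genes at day 5, 7 of 43 fell and 10 rose. Over all genes tested 21.7% fell and 21.9% rose, so these counts lie near the share of genes at large. Of 11 extracellular antagonists and modulators 4 rose. Nbl1, a secreted BMP antagonist, rose from 1.89 ± 0.565 to 12.8 ± 3.51 CPM (2.75 ± 0.30, adjusted p = 0.000112). Smad9, a receptor-activated Smad, fell from 24.8 ± 2.34 to 2.39 ± 0.193 CPM (-3.37 ± 0.26, adjusted p = 1.22e-05). Atoh8, a helix-loop-helix gene induced by BMP in endothelium and liver, fell from 15.0 ± 0.604 to 3.96 ± 0.535 CPM (-1.92 ± 0.28, adjusted p = 0.000628). The Smad corepressors Skil and Ski rose by 0.76 ± 0.06 (adjusted p = 2.32e-05) and 0.42 ± 0.06 (adjusted p = 0.000769).

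Other cell markers differed at day 5 too. All 4 tested blood markers were lower in KO, with sums over the 5 listed of 1109 to 1150 CPM in control and 24.1 to 91.5 CPM in KO and at most 1 marker at 0. Of 7 fibroblast and mesenchyme markers 4 were lower, with sums of 1050 to 1300 CPM in control and 106 to 378 CPM in KO and 0 at 0. Of 7 pluripotency markers 6 were higher, with sums of 188 to 193 CPM in control and 424 to 837 CPM in KO and 0 at 0. Of 8 streak and early mesoderm markers 3 were higher and 1 lower, and of 6 endoderm markers 1 was higher and 3 lower. Of 6 cardiac muscle markers 1 was higher and 1 lower. Of 6 neural markers 2 were higher, and of 3 tested neural crest markers 1. With 21.9% of all genes higher and 21.7% lower, the small cardiac muscle, neural and neural crest counts lie near those of genes at large. The part of these markers in the day 5 BMP results was not tested.

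**Figure D2:**
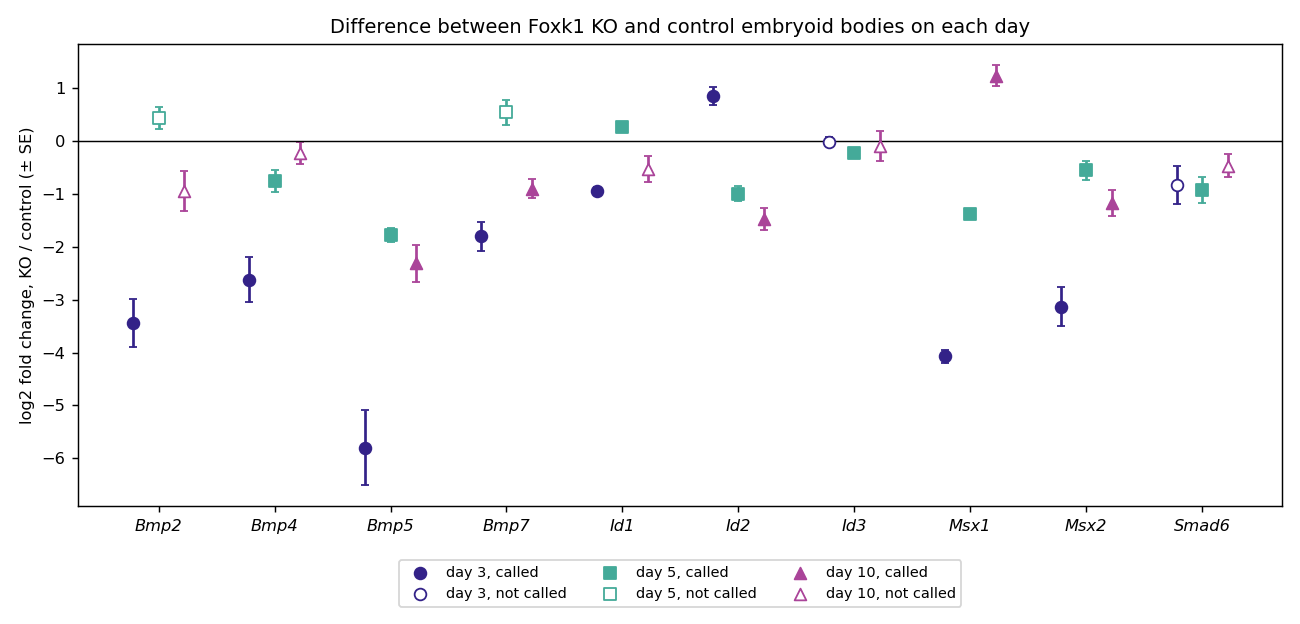
Log2 fold change of KO against control (vertical axis) for each gene (horizontal axis) at days 3, 5 and 10, with bars of ± 1 SE. Filled points passed an adjusted p of 0.05 and open points did not. The day 3 points of Bmp2, Bmp4, Bmp5, Msx1 and Msx2 lie well below their day 5 points. The points of Id2 and Msx1 are among those that cross 0 between days. The day 3 value of Bmp5 is a fitted value that rests on 1 KO count.

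Whether the difference between KO and control itself changed from day 3 to day 5 was tested with an interaction term. The KO effect, as the log2 difference between the lines is called here, was higher at day 5 than at day 3 for 7 of the 10 genes and lower for 1, where 13.4% of all genes were higher and 10.8% lower (24.2% called in all). All 4 ligands were among the 7. Bmp2 had a change of 3.88 ± 0.50 (adjusted p = 0.0022), and its KO libraries lay below control at day 3 and above it at day 5. The change was 2.35 ± 0.37 for Bmp7 (adjusted p = 0.00522) and 1.87 ± 0.49 for Bmp4 (adjusted p = 0.0458). The call of Bmp4 did not hold when any 1 of the day 3 libraries or of the day 5 control libraries was left out (adjusted p up to 0.147). That of Bmp5 (fitted 4.03 ± 0.87, adjusted p = 0.0121) rests on 1 KO count and was lost without KO replicate 2 of day 3 (adjusted p = 0.086).

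The homeobox genes had changes of 2.70 ± 0.16 (Msx1, adjusted p = 8.33e-06) and 2.58 ± 0.42 (Msx2, adjusted p = 0.0053). Id1 had a change of 1.21 ± 0.11 (adjusted p = 7.23e-05), from lower in KO to slightly higher. Id2 went the other way, -1.85 ± 0.22 (adjusted p = 0.00052), from higher in KO to lower. For Id3 (-0.21 ± 0.11, adjusted p = 0.2) and Smad6 (-0.09 ± 0.45, adjusted p = 0.907) no change was called. Of the 43 other pathway genes 16 were higher and 3 lower, where 13.4% of all genes were higher and 10.8% lower. Smad1 had the smallest p among these pathway genes (2.15 ± 0.16, adjusted p = 2.38e-05). Its level in KO went from 28.5 ± 3.42 CPM at day 3 to 60.4 ± 8.01 CPM at day 5. Its level in control went from 92.8 ± 2.68 to 44.2 ± 2.11 CPM. Of the marker lists, all 8 streak and early mesoderm genes, 5 of 7 pluripotency genes and 2 of 6 endoderm genes were higher in this comparison. Lower were 2 of 4 tested blood genes and 3 of 7 fibroblast and mesenchyme genes. Their part in the change was not tested.

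The rise between days 3 and 5 was seen in both lines. In control, 9 of the 10 genes rose, where 30.6% of all genes rose and 30.2% fell (60.8% called in all). In KO all 10 rose, where 28.3% of all genes rose and 25.5% fell (53.8% called in all). The 2 comparisons share no libraries, but both draw on the same estimate of the spread.

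Among ligands in control, Bmp5 had the largest log2 rise (5.96 ± 0.19, adjusted p = 1.56e-07), followed by Bmp4 (3.98 ± 0.26, adjusted p = 7.34e-05) and Bmp2 (2.71 ± 0.25, adjusted p = 0.000112). Bmp7 was the exception, at 37.0 ± 0.00201 and 35.3 ± 4.69 CPM (-0.07 ± 0.25, adjusted p = 0.834). In KO the ligands started lower. Bmp2 rose by 6.58 ± 0.36 (adjusted p = 1.33e-05), Bmp4 by 5.84 ± 0.34 (adjusted p = 6.55e-05) and Bmp7 by 2.28 ± 0.27 (adjusted p = 0.000565). Bmp5 went from 1 to 1250 counts over the KO libraries, a ratio of 1284 with a counting interval of 230.0 to 50740 at the 95% level. The response genes rose by 0.72 ± 0.07 (Id1) to 3.48 ± 0.16 (Id2) in control and by 1.63 ± 0.15 (Id2) to 5.70 ± 0.30 (Msx2) in KO. Other pathway genes split, with 19 of 43 higher and 11 lower in control and 22 higher and 6 lower in KO. Over all genes 30.6% rose and 30.2% fell in control, and 28.3% rose and 25.5% fell in KO. Fst, which encodes the activin and BMP binding protein follistatin, fell from 464 ± 20.2 to 3.77 ± 2.25 CPM in control (-6.94 ± 0.25, adjusted p = 4.44e-06) and from 179 ± 14.8 to 8.73 ± 1.23 CPM in KO (-4.35 ± 0.22, adjusted p = 2.5e-05).

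Per kilobase of exon, the day 3 control was led by Id1 (42.6 ± 1.8 CPM per kb), Id3 (25.4 ± 0.62) and Msx1 (22.8 ± 1.2), each apart from the next beyond its spread. Below them came Bmp7 (9.20), Bmp4 (6.4), Id2 (3.92), Msx2 (3.72), Smad6 (3.64), Bmp2 (2.53) and Bmp5 (0.755 CPM per kb). Id2, Msx2 and Smad6 did not differ beyond their spread. In the day 5 control Id3 (105 ± 0.44) and Bmp4 (101 ± 7.0 CPM per kb) stood highest and within their spread of each other. Bmp4 had thus become the ligand with the highest level per length, ahead of Bmp5 (47.2 ± 2.7), Bmp2 (16.5 ± 0.86) and Bmp7 (8.79 ± 1.2 CPM per kb).

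Over the 8 libraries of days 3 and 5, likeness of pattern was measured as the root mean square difference of mean-centred log2(CPM + 1), where 0 is identical. Among 10609 genes with a mean of at least 5 CPM, those most like Bmp4 were Pmp22 (0.379), Foxf1 (0.396) and Rgs5 (0.399). Those most like Id1 were Rbms1 (0.0647), Zfp672 (0.141) and Tnfrsf1a (0.141). Those most like Msx1 were Cdh11 (0.223), Pcdh7 (0.355) and Asb4 (0.414). Within the 10, the closest pairs were Bmp4 with Msx2 (0.345), Bmp2 with Msx2 (0.376) and Bmp7 with Id1 (0.378). These distances describe 8 libraries of 4 groups and carry no test.

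At day 10, when control embryoid bodies held heart muscle transcripts, 4 of the 10 genes were lower in KO and 1 was higher. Of all genes tested 3.35% fell and 1.92% rose (5.27% called in all). The median of the 10 was -0.71, against 0.02 for all genes.

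Bmp5 was at 39.1 and 42.8 CPM in control and 8.68 and 7.82 CPM in KO (-2.31 ± 0.34, adjusted p = 0.0194). Bmp7 was at 70.3 and 62.7 CPM in control and 35.9 and 35.5 CPM in KO (-0.90 ± 0.19, adjusted p = 0.0455). Bmp2 was at 11.2 and 12.2 CPM against 6.62 and 5.52 CPM, groups that did not overlap but did not pass the test (-0.94 ± 0.39, adjusted p = 0.24). Bmp4, at 67.7 and 56.3 CPM in control and 49.6 and 56.7 CPM in KO, overlapped between the lines (-0.22 ± 0.20, adjusted p = 0.65). Among these 4 ligands Bmp5 had the largest log2 difference in size, as it did at day 5.

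Id2 was at 219.6 and 175 CPM in control and 68.7 and 73.0 CPM in KO (-1.48 ± 0.21, adjusted p = 0.017). Msx2 was at 8.37 and 6.99 CPM in control and 3.01 and 3.83 CPM in KO (-1.17 ± 0.24, adjusted p = 0.0452). Msx1 was the gene that rose, from 4.27 and 4.63 CPM to 10.7 and 10.3 CPM (1.24 ± 0.20, adjusted p = 0.0237). The paralogs Msx1 and Msx2, both lower in KO at days 3 and 5, thus parted at day 10. Id1 (-0.53 ± 0.25, adjusted p = 0.319), Id3 (-0.09 ± 0.29, adjusted p = 0.914) and Smad6 (-0.46 ± 0.22, adjusted p = 0.32) did not pass the test. No call was left without control replicate 1, without control replicate 2 or without KO replicate 2, and 2 were left without KO replicate 1 (adjusted p of the 5 genes up to 0.365).

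Other pathway genes gave 2 rises and 2 falls among 49 tested at day 10, where 1.92% of all genes rose and 3.35% fell. Nbl1 was again higher, at 20.6 ± 1.95 CPM against 5.14 ± 0.0396 CPM in control (2.00 ± 0.33, adjusted p = 0.0262), and so was the ligand gene Gdf6, at 41.3 ± 2.42 against 5.91 ± 0.372 CPM (2.81 ± 0.56, adjusted p = 0.0422). Gdf2, which encodes BMP9, was lower (-1.98 ± 0.35, adjusted p = 0.0295), as was Id4 (-1.34 ± 0.27, adjusted p = 0.0408). Markers moved as well. All 6 cardiac muscle markers were lower in KO, with sums of 2491 to 2761 CPM in control and 56.5 to 125 CPM in KO, and 3 of 6 endoderm markers were lower, with sums of 3309 to 4093 and 558 to 1309 CPM. Of 7 fibroblast and mesenchyme markers 2 were higher, with sums of 7725 to 8304 CPM in control and 20535 to 26360 CPM in KO, and of 6 neural markers 2 were lower, with sums of 29.0 to 29.5 and 15.2 to 16.7 CPM. No marker of these 4 lists was at 0, and their part in the day 10 results was not tested.

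The IWR1 comparison asks what the drug changed in KO embryoid bodies at day 10. All 3 Id genes and both Msx genes rose, 5 of the 6 response genes, and no ligand passed the edgeR test (1 of the 4, Bmp5, had an unadjusted p under 0.05, and DESeq2 called it). Of all genes tested 5.77% rose and 8.08% fell (13.9% called in all). The median log2 fold change was 2.00 over the 6 response genes, 0.21 over the 4 ligands and -0.01 over all genes.

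Id1 was at 25.6 and 24.5 CPM in untreated KO and at 116 and 86.3 CPM with IWR1, a 4.03-fold rise (2.01 ± 0.26, adjusted p = 0.0116). Id2 went from 68.7 and 73.0 CPM to 289 and 243 CPM, a 3.76-fold rise (1.91 ± 0.22, adjusted p = 0.00853). Id3 went from 60.2 and 81.3 CPM to 342 and 234 CPM, a 4.07-fold rise (2.03 ± 0.30, adjusted p = 0.0143). The 3 genes, which had not moved together with the knockout at day 3, thus rose by like amounts with the drug. Msx1 went from 10.7 and 10.3 CPM to 44.1 and 39.4 CPM, a 3.97-fold rise (1.99 ± 0.20, adjusted p = 0.00675). Msx2 went from 3.01 and 3.83 CPM to 25.0 and 23.2 CPM, a 7.07-fold rise (2.82 ± 0.25, adjusted p = 0.00675). In all 5 genes both treated libraries stood above both untreated ones, as in 28.6% of all genes tested, and the calls held in each of the 13 alternative fits run, including those that left out any 1 library, with adjusted p of at most 0.0482.

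Smad6, also a target of BMP signals, did not share the rise. It was at 20.01 and 16.3 CPM in untreated KO and 14 and 16.6 CPM with IWR1 (-0.24 ± 0.22, adjusted p = 0.471, interval -0.68 to 0.19 at the 95% level). Its values overlapped, and the interval leaves out a rise of the size seen in the Id and Msx genes.

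The ligands showed no shared direction with IWR1. Bmp4 was at 44 and 38.3 CPM with IWR1 (-0.37 ± 0.20, adjusted p = 0.244, interval -0.76 to 0.03) and Bmp7 at 38.0 and 33.3 CPM (-0.0035 ± 0.19, adjusted p = 0.992, interval -0.37 to 0.36). Bmp2 was at 11.2 and 5.10 CPM, so that its treated libraries lay on either side of the untreated ones (0.42 ± 0.38, adjusted p = 0.469). Bmp5 was at 20.4 and 10.3 CPM, above both untreated libraries (0.90 ± 0.33, adjusted p = 0.115), and was called without IWR1 replicate 2 (1.31, adjusted p = 0.021), without the low-count filter (adjusted p = 0.0422) and by DESeq2 (adjusted p = 0.0498).

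**Figure D3:**
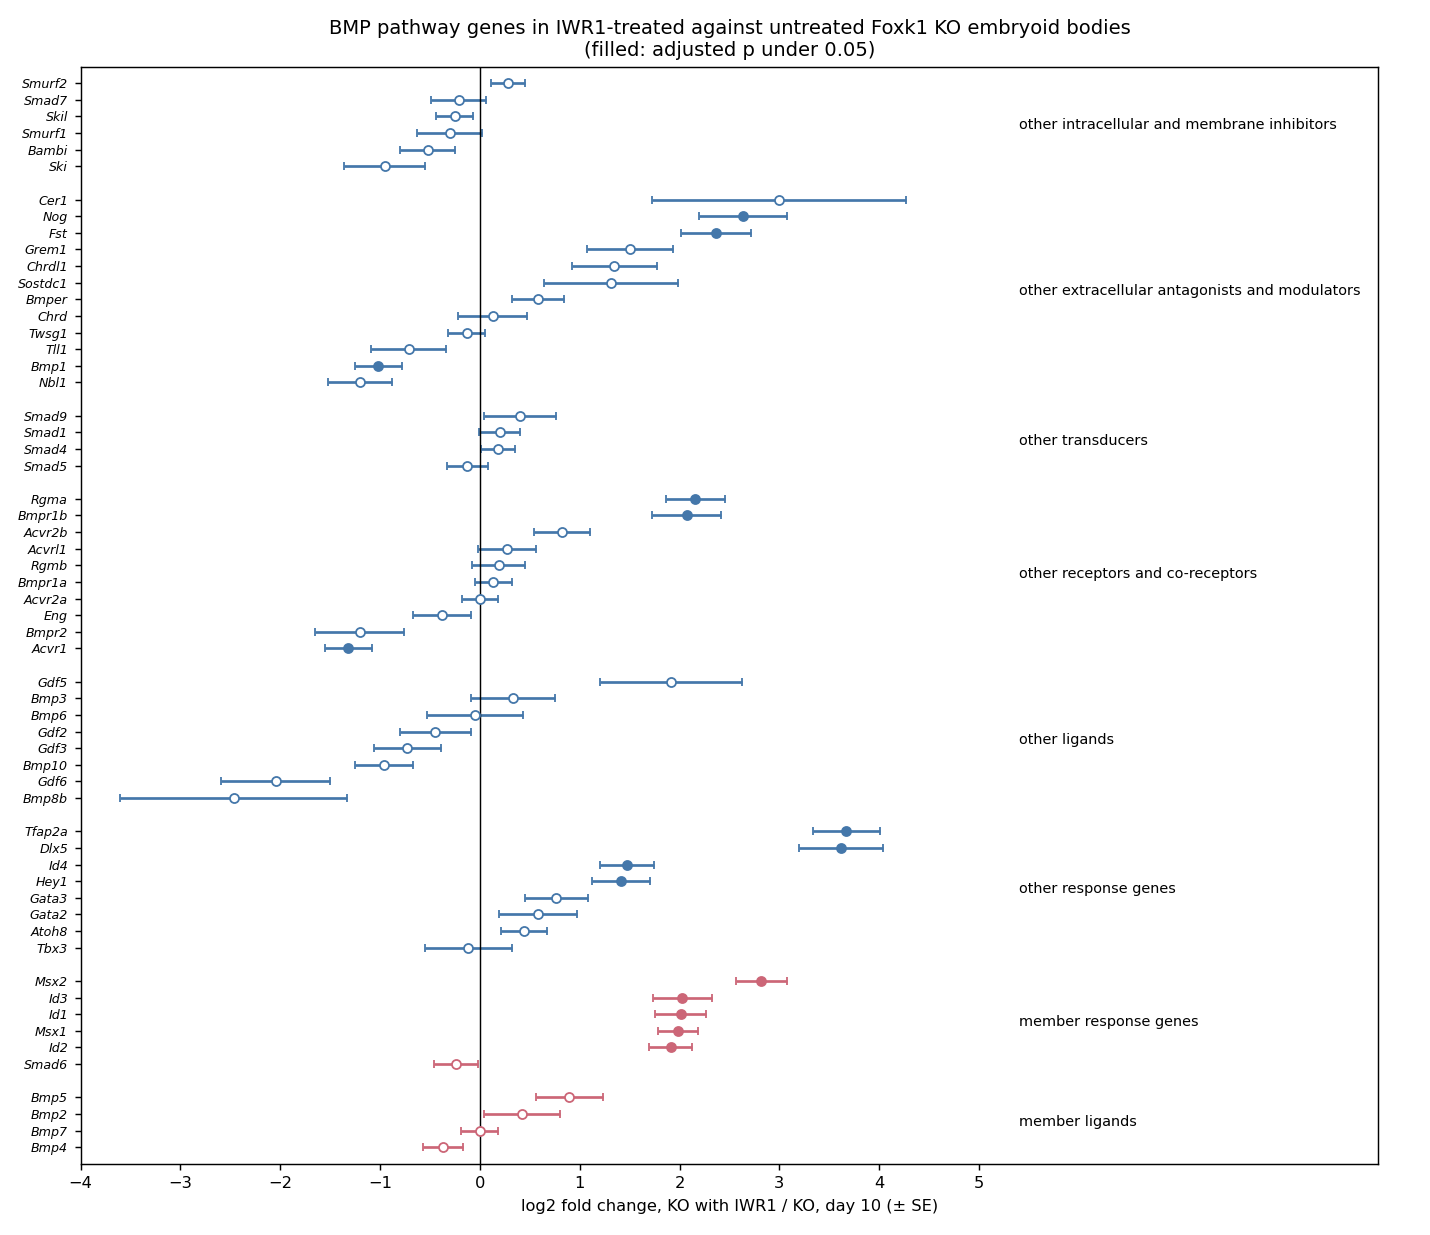
Log2 fold change of IWR1-treated KO against untreated KO at day 10 (horizontal axis, ± 1 SE) for the 10 genes and the other tested pathway genes reported here, grouped by role. Filled points passed an adjusted p of 0.05. The Id and Msx points lie between 1.91 and 2.82, while Bmp2, Bmp4, Bmp5, Bmp7 and Smad6 lie between -0.37 and 0.90.

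Among the 49 other pathway genes tested, 8 rose and 2 fell with IWR1, where 5.77% of all genes rose and 8.08% fell. Of the 8 further response genes 4 were among the rises, led by the transcription factor genes Tfap2a, of neural crest and surface ectoderm, and Dlx5, a distal-less homeobox gene. Tfap2a went from 1.09 ± 0.271 to 14 ± 2.89 CPM (3.67 ± 0.34, adjusted p = 0.00675). Dlx5 went from 0.269 ± 0.0319 to 3.34 ± 0.187 CPM (3.62 ± 0.42, adjusted p = 0.00867). The co-receptor gene Rgma rose from 8.94 ± 2.75 to 40.0 ± 9.21 CPM (2.16 ± 0.30, adjusted p = 0.013). The falls were the receptor gene Acvr1, from 53.2 ± 6.28 to 21.4 ± 4.91 CPM (-1.32 ± 0.23, adjusted p = 0.0197), and Bmp1, which encodes a protease that cleaves the antagonist chordin, from 147 ± 17.2 to 72.3 ± 16.1 CPM (-1.02 ± 0.24, adjusted p = 0.038).

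Several marker lists differed strongly between these groups. All 6 neural markers were higher with IWR1, with sums of 15.2 to 16.7 CPM in untreated KO and 172 to 256 CPM with IWR1. All 4 neural crest markers were higher, with sums of 1.99 to 2.35 and 22.1 to 42.8 CPM. Of 7 fibroblast and mesenchyme markers 6 were lower and 1 higher, with sums of 20535 to 26360 and 1249 to 3392 CPM, and of 6 endoderm markers 4 were lower and 1 higher, with sums of 558 to 1309 and 80.1 to 133 CPM. Of 6 cardiac muscle markers 2 were higher, with sums of 56.5 to 125 and 173 to 219.6 CPM. Of 7 pluripotency markers 2 were lower, of 5 blood markers 1 was lower, and of 8 streak and early mesoderm markers 1 was higher and 1 lower. No marker of these lists was at 0. Their part in the rise of the Id and Msx genes was not tested.

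**Figure D4:**
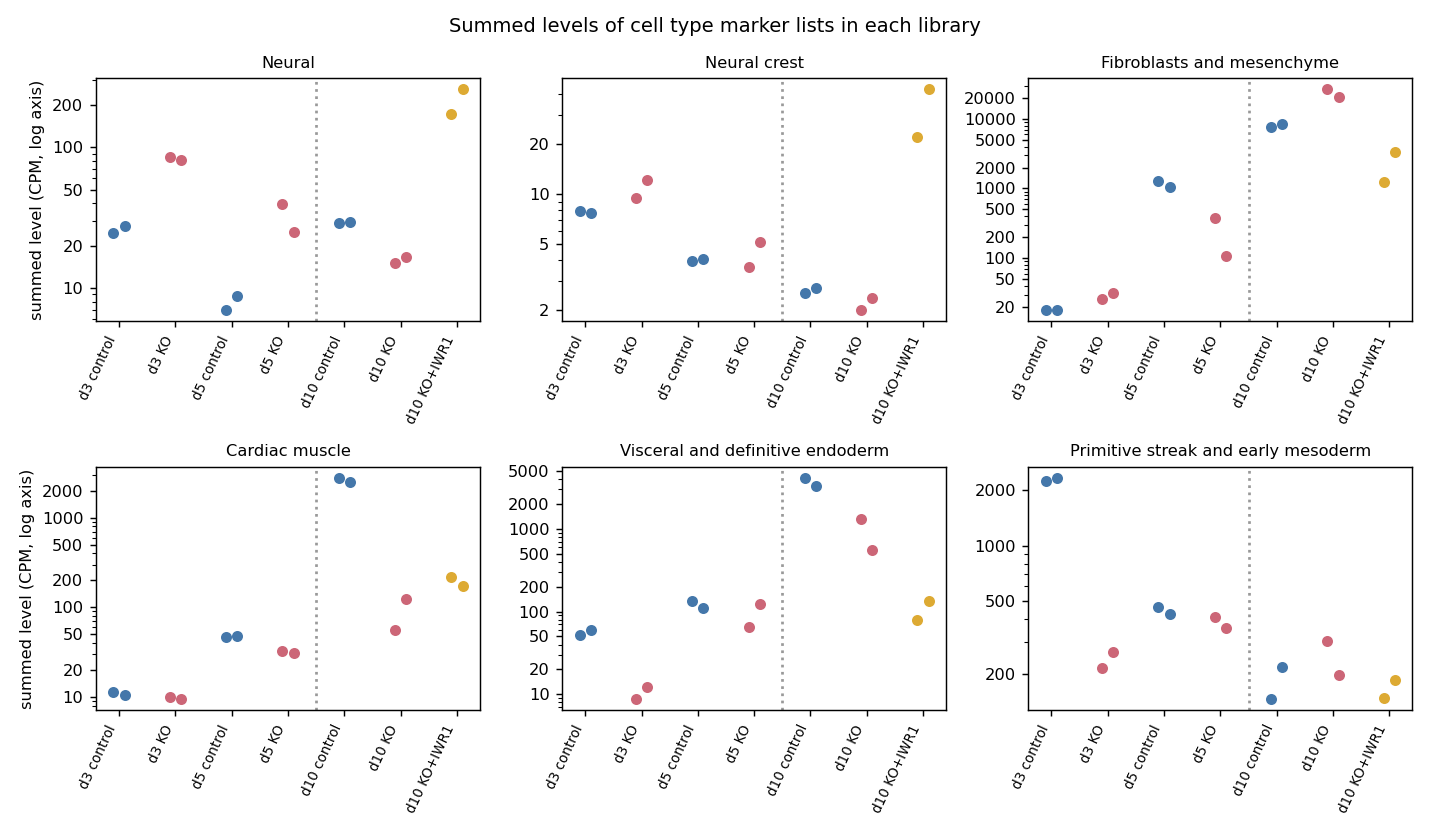
Summed CPM of 6 marker lists in each library (vertical axes, logarithmic) by group. Points are libraries and the dotted line sets off the day 10 table. Neural and neural crest sums are highest with IWR1, fibroblast sums are highest in the untreated day 10 KO, and the sum of streak and early mesoderm markers is highest in the day 3 control.

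Against the day 10 control, the IWR1-treated KO differed in another way. Of the 10 genes 4 were higher and 2 lower, where 2.99% of all genes were higher and 6.13% lower (9.12% called in all). This comparison shares libraries with both day 10 comparisons above. Msx1 was highest, at 41.7 ± 3.26 against 4.45 ± 0.259 CPM (3.23 ± 0.21, adjusted p = 0.00221), and Id3 (1.93 ± 0.30, adjusted p = 0.0154), Msx2 (1.65 ± 0.24, adjusted p = 0.0123) and Id1 (1.49 ± 0.25, adjusted p = 0.0211) were above control too. Bmp5 (-1.41 ± 0.33, adjusted p = 0.0495) and Bmp7 (-0.90 ± 0.19, adjusted p = 0.0356) were below control. Id2, whose untreated KO level was below control, was at 289 and 243 CPM against 219.6 and 175 CPM in control (0.43 ± 0.21, adjusted p = 0.203). Bmp2 (-0.52 ± 0.38, adjusted p = 0.37), Bmp4 (-0.59 ± 0.20, adjusted p = 0.11) and Smad6 (-0.70 ± 0.22, adjusted p = 0.0924) did not pass the test. Without control replicate 1 or control replicate 2, 1 call was left, that of Msx1, and without IWR1 replicate 1, 3 were left. Of the 49 other pathway genes 4 were higher and 3 lower, Tfap2a (2.70 ± 0.32, adjusted p = 0.0074), Dlx5 (3.10 ± 0.40, adjusted p = 0.00875) and Fst (2.48 ± 0.35, adjusted p = 0.0117) among the former and Gdf2 (-2.42 ± 0.35, adjusted p = 0.013), Bmp10 (-1.55 ± 0.29, adjusted p = 0.0261) and Eng (-1.39 ± 0.29, adjusted p = 0.0375) the latter. All 4 neural crest markers, with sums of 2.54 to 2.73 CPM in control, and 5 of 6 neural markers, with sums of 29.0 to 29.5 CPM, were higher with IWR1. Of 6 cardiac muscle markers 5 were lower, with sums of 2491 to 2761 CPM in control and 173 to 219.6 CPM with IWR1. Of 6 endoderm markers 4 were lower, with sums of 3309 to 4093 and 80.1 to 133 CPM, and of 7 fibroblast and mesenchyme markers 2 were lower, with sums of 7725 to 8304 and 1249 to 3392 CPM. No marker of these 5 lists was at 0, and their part was not tested.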

How the data were processed

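Paired-end RNA sequencing of 14 embryoid body libraries in 7 groups was deposited as a table of days 3 and 5 and a table of day 10. The values are estimated counts per gene that the authors deposited as whole numbers, made with kallisto 0.46.2 on mm10, per the submitters' processing notes. The labels do not state the step from transcripts to genes. They name a TruSeq RNA or a stranded mRNA kit, so strand is not settled. Symbols and positions came from GENCODE vM21 and matched 35968 of the 36047 identifiers, leaving 79. The 10 genes, the pathway and marker lists, and the tests were chosen with earlier results of these data known.

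Each table was fitted with edgeR 4.0.16 in R 4.3.3 (filterByExpr, TMM scaling, robust quasi-likelihood F-test, two-sided, Benjamini-Hochberg adjustment over all genes tested, threshold 0.05). The day 3 and day 5 fit tested 14430 genes and the day 10 fit 17022, with 8 comparisons in all and none across the tables. Samples of a group are not stated to be separate cultures, so p-values measure the spread between these libraries, which may be technical. Replicate libraries of a group differed beyond counting noise and were kept as separate samples. The excess was unequal, by chi-square per degree of freedom against counting noise. It was 1.87 and 1.88 in day 3 control and KO, 3.91 in day 5 control and 20.4 in day 5 KO. At day 10 it was 51.9 in control, 160 in KO and 149 with IWR1. Each fit nonetheless shared an estimate of the spread across its groups. All 10 genes were to be named in every comparison, and of the other pathway genes up to 3 rises and 3 falls with the smallest p. A result that meets this rule is not reported here. The 3 genes most like Bmp4, Id1 and Msx1 were named from genes tested with a mean of at least 5 CPM, with 1 added to CPM before the logarithm. Counting intervals and floors cover counting error only. Promoters were read from a RefSeq table of GRCm38.p6. Sequence similarity was checked with blastn 2.17.0: 380 bases of Id2 matched Gm6175 at 91.8%, which had at most 1 count in a library. Bmp4 overlaps Gm15217 on the opposite strand, which had at most 22 counts in a library. The fit was also run on simulated data with the same spread in every group. Since these libraries differ in spread, that run does not check their p-values. Alternatives were another scaling, no low-count filter, DESeq2 1.42.0, a replicate block, fewer libraries and no robust moderation. An adjusted p that DESeq2 left undefined stayed undefined.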

Additional observations from a re-analysis of the deposited data

Results flagged for a closer look

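The difference between KO and control changed between days 3 and 5, by the interaction test in edgeR's quasi-likelihood fit, for 8 of the 10 genes. The same test called 24.2% of all genes. The change on the log2 scale was 3.88 for Bmp2, 1.87 for Bmp4, 4.03 for Bmp5 (a fitted value that rests on 1 KO count), 2.35 for Bmp7, 1.21 for Id1, -1.85 for Id2, 2.70 for Msx1 and 2.58 for Msx2. For Bmp2, Id1, Id2 and Msx1 the KO libraries of day 10 lay on the other side of control from those of an earlier day. How often this happened over all genes was not counted, so it is given gene by gene only. Both KO libraries of Bmp2 were above control at day 5 and below it at day 10 (-0.94), with no call on either day, and Id1, which rose at day 5, was below control at day 10 with no call (-0.53). Id2 was called higher in KO at day 3 and lower at day 10 (-1.48), and Msx1 was called lower at days 3 and 5 and higher at day 10 (1.24). The differences from day 10 were not tested, since that table was deposited separately. With 2 libraries a group, single libraries could not be tested as standing apart.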

How the results depend on the processing

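Of the 10 genes, 8 were called in the day 5 comparison of KO and control, 5 without the low-count filter, 4 with only the groups compared and 3 to 9 with 1 library left out. In the day 10 comparison 5 were called, and 0 to 4 with 1 library left out. For IWR1-treated KO against control 6 were called, and 1 to 6 with 1 library left out. The other counts stayed within 1.5 times, and in the leave-one-out fits they ranged from 7 to 9 at day 3, from 5 to 6 for IWR1 against KO, and from 6 to 10 for the difference of KO effects. Where a lone library was left in a group, it was assumed to vary like the others. The cause of these shifts was not tested. Uncalled values near 0 turned sign: Id3 at day 3 was 0.011 with RLE scaling, 0.0054 without the filter and 0.0073 with DESeq2, and ranged from -0.13 to 0.098 with 1 library left out. Bmp7 with IWR1 against KO was 0.0078 with RLE scaling, 0.0095 with DESeq2 and 0.0043 with only the groups compared, and ranged from -0.10 to 0.088. The leave-one-out ranges were -0.32 to 0.16 for Id3 at day 10, -0.25 to 0.88 for Bmp2 with IWR1 against KO, -0.21 to 0.061 for Bmp7 from day 3 to day 5 in control, and -0.56 to 0.22 for the Smad6 difference of KO effects. The planned addition of pseudogene copies could not be run, as no pseudogene named after these genes was annotated.

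At days 3 and 5 same-numbered libraries showed no shared deviation from their group means: the deviations correlated at -0.0079 to 0.084. With 2 libraries a group, this cannot show whether the libraries were paired. At day 10 the deviations correlated at -0.57 for control and KO, -0.55 for KO and IWR1-treated KO, and 0.45 for control and IWR1-treated KO. The day 10 groups thus shared a difference between libraries, in opposite order in KO, which the main fit leaves in the spread. Its cause was not tested. With the replicate block, 2 of the 10 genes were called at day 10 and 4 for IWR1-treated KO against control, and the other 6 comparisons kept their counts. With the KO numbers of day 10 crossed, an alternative chosen after seeing the data, 5, 6 and 9 of the 10 genes were called for KO against control, IWR1 against KO and IWR1 against control.

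Counts over all genes, and so the background shares, moved more. With 1 library left out they ran from 63 to 1154 around 897 at day 10, from 548 to 3056 around 2358 for IWR1 against KO, from 280 to 2145 around 1553 for IWR1 against control, from 2520 to 7002 around 4741 at day 3, from 4030 to 7565 around 6281 at day 5, and from 2049 to 5621 around 3496 for the difference of KO effects. In the first 3 comparisons the counts were 1981, 4229 and 3402 by DESeq2, 1737, 3697 and 3093 without the filter, and 3257, 7268 and 7182 with the crossed numbers. The replicate block gave 1233 for IWR1 against KO and 948 for IWR1 against control, and a fit of only the groups compared gave 1001 for IWR1 against KO and 7334 at day 3. DESeq2 called 3010 at day 3 and 2313 for the difference of KO effects.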
